A study of Mus musculus with 6 samples.

Results

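The integrated stress response genes described here are Atf4 and 9 genes of its response, namely Atf3, Atf5, Ddit3, Chac1, Trib3, Asns, Sesn2, Ppp1r15a and Pck2. They were looked up by gene symbol, and all 10 were among the 12534 genes of the table and among the 12106 genes tested. The set was chosen by the measured difference between GPD2 KO and WT cells in this same table, so their fold changes describe the choice and are given without a test of their own. RNA-seq libraries came from the GPD2 KO form of the 4T1 line (3 libraries) and from 4T1 WT cells (3 libraries). The 4T1 line is a mouse mammary carcinoma line of the BALB/c strain. The knockout was made with a vector that carries Cas9 and a guide RNA against Gpd2, the gene of mitochondrial glycerol-3-phosphate dehydrogenase, followed by puromycin selection and growth of clones from single cells. A caption of the study ties its pathway analysis of these RNA-seq data to the clone named GPD2 KO (1), while the labels name no clone. With a single clone, what the knockout did and what the clone brought with it cannot be told apart. The labels name the vector for the WT samples as well, so it is not known whether WT cells met it. The study's general statement on statistics describes its samples as biologically independent unless noted, without naming RNA-seq, and the labels do not say whether replicates were separate cultures. If they were not, p-values measure technical spread.

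In the integrated stress response, kinases that sense different stresses phosphorylate the translation initiation factor eIF2. This lowers general protein synthesis while translation of the Atf4 mRNA increases through its upstream reading frames. The ATF4 protein, a basic leucine zipper factor, then induces genes of amino acid uptake and synthesis, further transcription factors and feedback inhibitors of the response. Because ATF4 is controlled largely through translation, the Atf4 mRNA is not a measure of its protein, and neither protein nor eIF2 phosphorylation was analysed here.

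Total counts were 51186527 to 55645413 in the GPD2 KO libraries and 53464439 to 59846170 in the WT libraries. Gpd2, the targeted gene, had 9.91 ± 0.0348 TPM in GPD2 KO cells and 51.9 ± 0.281 TPM in WT cells (SD, n = 3 each), lower in every library labelled GPD2 KO. TPM scales a count by gene length and library, and CPM scales it by library alone, so levels of different genes are set side by side only in TPM. Of all genes tested, 66.8% passed the test at an adjusted p under 0.05, with 33.5% higher and 33.3% lower in GPD2 KO cells. The libraries came from whole populations of the cultured 4T1 line, in which fewer expressing cells and less RNA per cell cannot be told apart. Levels of the marker genes below are not read as shares of cell types. The epithelial markers Krt8, Krt18 and Krt7, 3 of 6 listed, summed to 733 to 771 CPM in GPD2 KO and 1267 to 1331 CPM in WT libraries. Epcam, Krt19 and Cdh1 were looked up but are not among the genes of the table, so only these keratins of the epithelial list were measured. Of the leukocyte markers, 4 of 9 (Lyz2, Cd68, Cd79a and Lck) summed to 11.1 to 12.4 CPM in GPD2 KO and 14.6 to 16.2 CPM in WT libraries. Most of that sum was Cd68 (9.79 CPM in GPD2 KO and 13.19 CPM in WT cells), and Lyz2 and Cd68 were lower in GPD2 KO cells while Cd79a and Lck were higher. Of the fibroblast markers, 2 of 5 (Col1a1 and Pdgfra) summed to 55.5 to 63.0 CPM in GPD2 KO and 115 to 116 CPM in WT libraries. Cdh5, the endothelial marker measured of 3 listed, lay at 3.11 to 3.92 CPM in GPD2 KO and 20.5 to 21.3 CPM in WT libraries. The part of these markers in the results below was not tested.

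ATF4 binds, with C/EBP partners, a composite element whose letters were searched here as TGATGNAA on both strands. The related cyclic AMP response element (CRE) was searched as TGACGTCA, which reads the same on both strands. Windows of 300 bases, with 250 before the annotated start and 50 from the start on, were taken from RefSeq (GRCm38, the assembly of mm10). There were 11 windows for the 10 genes, since Atf5 has more than 1. Stretches of the windows with a match are printed to show which windows hold the letters searched. They are the 250 bases before the start for Chac1 and Pck2, 60 bases for Atf3, Asns and Ppp1r15a, and 30 bases for Trib3. Capitals mark the match, each sequence is on the strand of its gene, and positions count from the annotated start of the window. For Pck2 that start lies just inside the gene position given below, which begins at chr14:55540263.
Chac1, chr2:119350992-119351241, plus strand: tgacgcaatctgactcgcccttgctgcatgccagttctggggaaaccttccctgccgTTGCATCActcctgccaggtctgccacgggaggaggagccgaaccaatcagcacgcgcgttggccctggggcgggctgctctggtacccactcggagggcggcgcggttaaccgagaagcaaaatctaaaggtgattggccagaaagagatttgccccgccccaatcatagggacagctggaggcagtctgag
Pck2, chr14:55540016-55540265, plus strand: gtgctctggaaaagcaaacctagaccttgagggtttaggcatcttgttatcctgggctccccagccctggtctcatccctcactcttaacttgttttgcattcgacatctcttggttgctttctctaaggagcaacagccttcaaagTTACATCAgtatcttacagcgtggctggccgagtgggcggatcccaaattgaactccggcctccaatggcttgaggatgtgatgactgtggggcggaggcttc
Atf3, chr1:191183410-191183469, minus strand: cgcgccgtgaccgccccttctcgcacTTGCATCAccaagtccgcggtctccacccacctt
Asns, chr6:7693210-7693269, minus strand: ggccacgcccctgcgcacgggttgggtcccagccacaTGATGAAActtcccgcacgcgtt
Trib3, chr2:152344028-152344057, minus strand: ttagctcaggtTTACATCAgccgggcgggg
Ppp1r15a, chr7:45526269-45526328, minus strand: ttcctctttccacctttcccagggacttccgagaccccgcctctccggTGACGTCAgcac

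The composite element was present in 5 of the 11 windows (45.5%), those of Chac1 (-193 to -186), Atf3 (-110 to -103), Pck2 (-103 to -96), Asns (-23 to -16) and Trib3 (15 to 22, inside the transcribed part). Among all 32851 RefSeq promoter windows of this length, 1304 (3.97%) held it, and 2.17% of the windows of tested genes did. Chac1 and Atf3 share the letters TTGCATCA, and Pck2 and Trib3 share TTACATCA. Both are the composite element on the opposite strand, whereas Asns carries it as TGATGAAA on the gene's own strand. Pck2, the member that was lower in GPD2 KO cells, carries the same letters as Trib3, which was higher. Ppp1r15a had a CRE at -12 to -5, found in 1.79% of all windows and in 3.19% of those of tested genes. Of 53 windows of other genes listed as targets of the response, 0 held it. The windows of Atf4, Atf5, Ddit3 and Sesn2 held neither run of letters. Sequence beyond the windows was not searched.

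Among windows of other genes listed as targets of the response, 11 of 53 (20.8%) held the composite element. The 53 windows covered 42 genes. Of the 12106 genes tested, 9585 were matched to a window, so the shares leave out the rest. By direction in the whole table, it was in 2.34% of windows of genes higher in GPD2 KO cells, in 1.90% of those of genes that were lower and in 2.27% of those that did not pass. Among genes higher by a fold of 2 or more, which include some of the 10, it was in 21 of 444 windows (4.73%). A match is a run of letters and not a measured binding site.

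**Figure D1:**
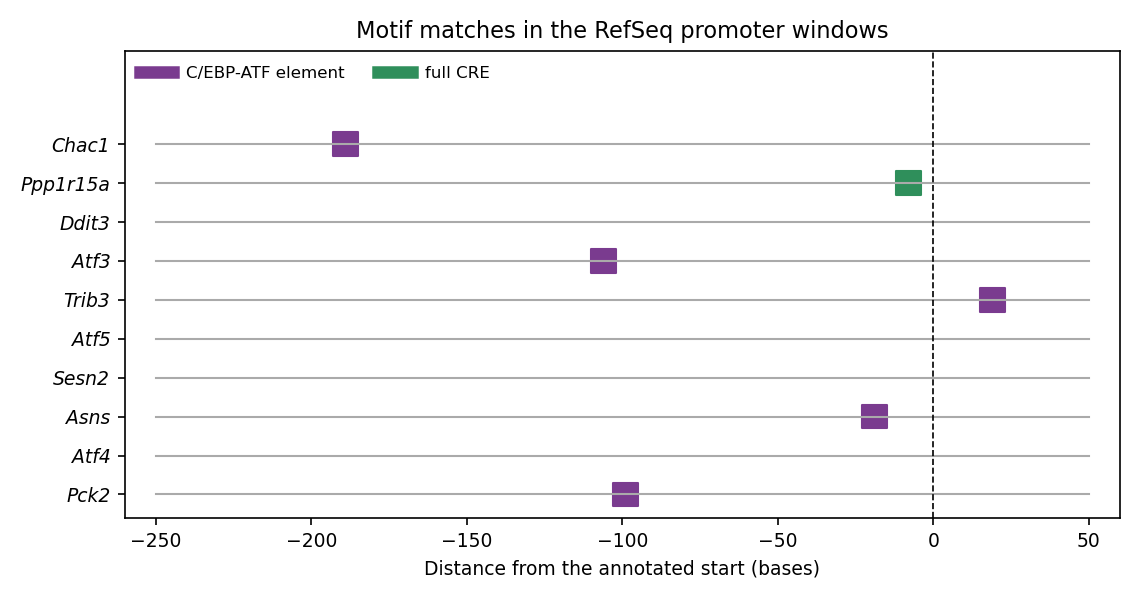
Positions of the composite element (purple) and the CRE (green) in the promoter windows of the 10 genes, in bases from the annotated start (dashed line), with genes ordered by their fold change. The element lies at -193 to -186 in Chac1 and at -103 to -96 in Pck2, and no match was found for Atf4, Atf5, Ddit3 or Sesn2.

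Among the transcription factors, the Atf4 transcript was the most abundant of the 10 genes and Atf3 the least. Atf4 (chr15:80255184-80257545) had 471, 497 and 475 TPM in GPD2 KO libraries, against 348, 387 and 384 TPM in WT libraries. All 3 GPD2 KO values were above all 3 WT values, and the log2 fold change was 0.37 (standard error 0.0493), a fold of 1.29. By this measure Atf4 was among the smaller changes of the set, and 17.8% of all genes tested had a higher log2 fold change.

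Atf3 (chr1:191170296-191183333), a stress-induced factor of the same family, had 12.5, 13.6 and 13.9 TPM in GPD2 KO libraries, against 4.91, 5.94 and 6.27 TPM in WT libraries. The groups did not overlap, and the log2 fold change was 1.22 (standard error 0.103). Ddit3 (chr10:127290793-127296291), which encodes the pro-apoptotic factor CHOP, had 30.9, 26.0 and 27.7 TPM in GPD2 KO libraries, against 11.3, 11.7 and 12.2 TPM in WT libraries. Its log2 fold change was 1.26 (standard error 0.0874), and GPD2 KO replicate 1 was the highest library. Atf3 and Ddit3 rested on the fewest reads of the set, with lowest counts of 248 and 250.

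Atf5 (chr7:44812256-44816658), a factor tied to the mitochondrial unfolded protein response, had 119, 137 and 133 TPM in GPD2 KO libraries, against 71.28, 80.84 and 74.97 TPM in WT libraries. The log2 fold change was 0.78 (standard error 0.0627), with every GPD2 KO library above every WT library. Atf5 overlaps Nup62 over 571 bases, Ddit3 overlaps Mars over 68 and Ppp1r15a overlaps Tulp2 over 717, each on the opposite strand. Longer overlaps were with noncoding genes that are not among the genes of the table. Sesn2 overlaps Gm12981 over 6089 bases on the same strand, and Pck2 overlaps Gm10876 over 2134 on the opposite strand. Whether counting used strand is not stated in the sources at hand, and reads from these overlaps may be shared. Nup62, a nuclear pore gene, had a log2 fold change of 0.26 and Mars 0.21, while Tulp2 was at 0.583 CPM in GPD2 KO and 0.275 CPM in WT cells.

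**Figure D2:**
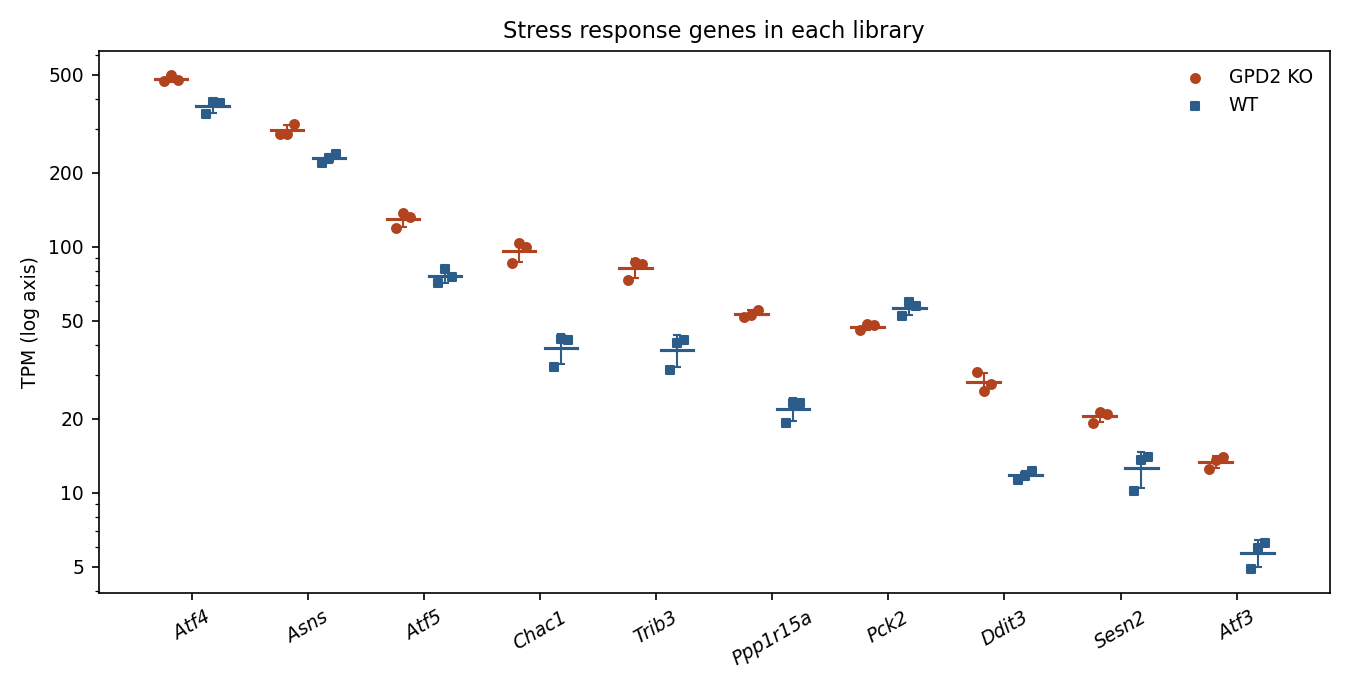
TPM of the 10 genes in each library on a log axis, ordered by mean in GPD2 KO cells, with GPD2 KO (circles) left of WT (squares). Horizontal lines are group means and bars are SD (n = 3 each), and the groups of every gene are separate, with Pck2 alone lower in GPD2 KO cells.

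Among feedback and effector genes, Chac1 and Ppp1r15a had the largest fold changes of the set. Chac1 (chr2:119351242-119354326), which encodes a glutathione-degrading enzyme, had 85.8, 103 and 99.7 TPM in GPD2 KO libraries, against 32.4, 42.0 and 41.6 TPM in WT libraries. Its log2 fold change of 1.32 (standard error 0.104) was the highest of the 10. Ppp1r15a (chr7:45522917-45526268), which encodes GADD34, the phosphatase subunit that reverses eIF2 phosphorylation, had 51.8, 52.9 and 55.4 TPM in GPD2 KO libraries, against 19.2, 23.2 and 23.3 TPM in WT libraries. The log2 fold change was 1.29 (standard error 0.0717), and the GPD2 KO libraries lay close together.

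Trib3 (chr2:152337425-152344060), a pseudokinase that binds ATF4 and Akt, had 73.2, 86.8 and 85.2 TPM in GPD2 KO libraries, against 31.5, 40.6 and 41.8 TPM in WT libraries. The log2 fold change was 1.11 (standard error 0.106), and replicate 1 was the lowest library of each group. Sesn2 (chr4:132492804-132510456), a leucine-sensing inhibitor of mTORC1 signalling, had 19.3, 21.2 and 20.9 TPM in GPD2 KO libraries, against 10.1, 13.6 and 14.0 TPM in WT libraries. The log2 fold change was 0.71 (standard error 0.109), the largest standard error of the set, with WT replicate 1 well below the other WT libraries.

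The 2 metabolic enzymes differed by small folds and in opposite directions. Asns (chr6:7675165-7693209), asparagine synthetase, had 288, 288 and 315 TPM in GPD2 KO libraries, against 219, 228 and 239 TPM in WT libraries, a log2 fold change of 0.38 (standard error 0.0491). Pck2 (chr14:55540263-55550020), the mitochondrial phosphoenolpyruvate carboxykinase, had 45.9, 48.3 and 47.8 TPM in GPD2 KO libraries, against 52.4, 59.3 and 57.2 TPM in WT libraries. The log2 fold change of Pck2 was -0.25 (standard error 0.0486), a fold of 0.842, and its groups did not overlap. In level, Pck2 had rank 7 of the 10 in GPD2 KO cells and rank 4 in WT cells, and Chac1, Trib3 and Ppp1r15a were the genes that stood above it only in GPD2 KO cells.

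In the order of TPM, Trib3 overlapped its neighbour Chac1 in both groups. Ddit3 and Sesn2 overlapped in WT libraries but not in GPD2 KO libraries.

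In the test over all genes, 9 of the 10 genes were higher in GPD2 KO cells (33.5% of all genes were) and 1 was lower (33.3% of all genes were). Of the higher ones, 5 (Chac1, Ppp1r15a, Ddit3, Atf3 and Trib3) differed by a fold of 2 or more. Of all genes tested, 3.74% were higher by that fold. The CPM of the groups did not overlap for any of the 10, against 71.1% of all genes. The median log2 fold change was 0.94 for the 10 genes and -0.00081 for all genes. Nothing is read from these counts, since the genes were chosen with this contrast known.

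**Figure D3:**
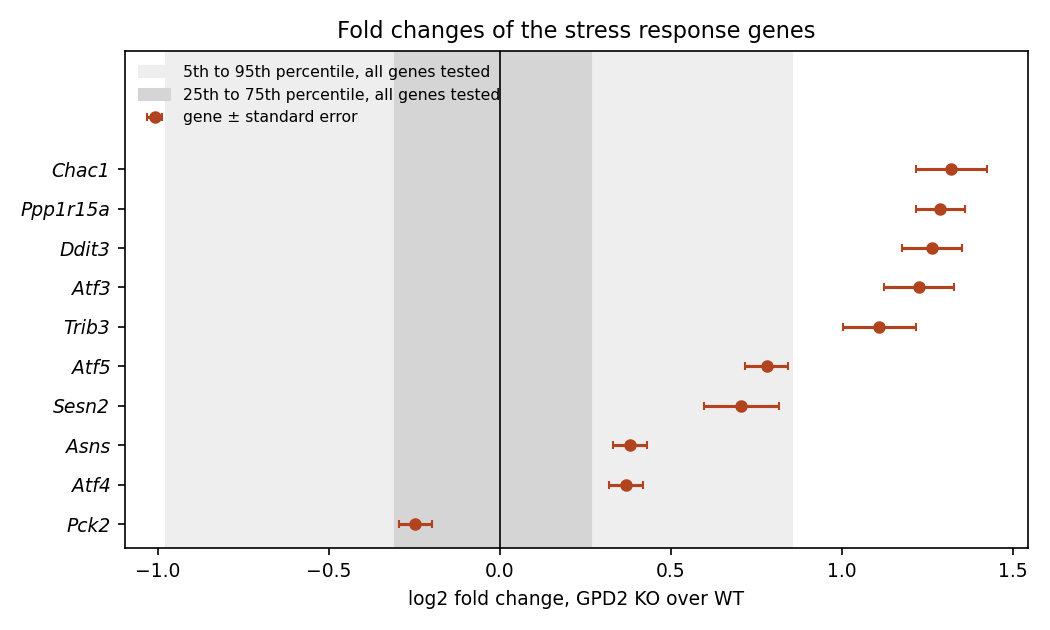
Log2 fold change, GPD2 KO over WT, of the 10 genes with standard errors, over bands for the 25th to 75th (-0.31 to 0.27) and the 5th to 95th percentile (-0.98 to 0.85) of all genes tested. Chac1, Ppp1r15a, Ddit3, Atf3 and Trib3 lie above the 95th percentile, and Pck2 lies inside the inner band.

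Within each group, replicate 1 was low for nearly all of the 10 genes. WT replicate 1 held the lowest WT value of all 10 genes, whereas it was the lowest WT library for 28.4% of all genes. GPD2 KO replicate 1 held the lowest GPD2 KO value of 9 of 10, the exception being Ddit3, against 32.8% of all genes. The median deviation from the group mean was -0.08 in GPD2 KO replicate 1 and -0.14 in WT replicate 1 on the log2 CPM scale, and over all genes it was 0.00064 and 0.0029. Without replicate 1 of either group, an alternative chosen after seeing the data, all 10 genes stayed on the same side of the test, with log2 fold changes of 1.29 for Chac1, 0.34 for Atf4 and -0.27 for Pck2. No label gives a batch for these libraries.

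Over the 6 libraries, log2 CPM of Atf4 correlated with that of Trib3 (r = 0.995), Chac1 (r = 0.993) and Sesn2 (r = 0.990). The libraries form only 2 groups, so any gene that differs between them in the same direction scores high, and 1044 of 11104 genes averaging 1 CPM or more had r over 0.95. After subtraction of the group means, r with Atf4 was 0.955 for Sesn2, 0.955 for Chac1, 0.949 for Trib3 and 0.904 for Atf3. It was 0.944 for Pck2, whose r over the libraries as they stand was -0.73. In replicate 1, Pck2 deviated from its group mean by -0.06 in GPD2 KO and -0.10 in WT cells. Atf4 deviated there by -0.05 and -0.10. The within-group values thus draw on the low replicate 1 of both groups, and r without it was not computed. Asns (r = 0.433) and Ddit3 (r = -0.12) followed Atf4 least within groups. The genes most like Atf4 over all libraries were Vps18 (r = 0.998), Plekhh2 (r = 0.998) and Sos2 (r = 0.997). Within groups their r with Atf4 was 0.990, 0.986 and 0.989, above that of every other gene of the set. How many of all genes reached such values within groups was not counted. These values describe 6 libraries that share their groups and carry no test.

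**Figure D4:**
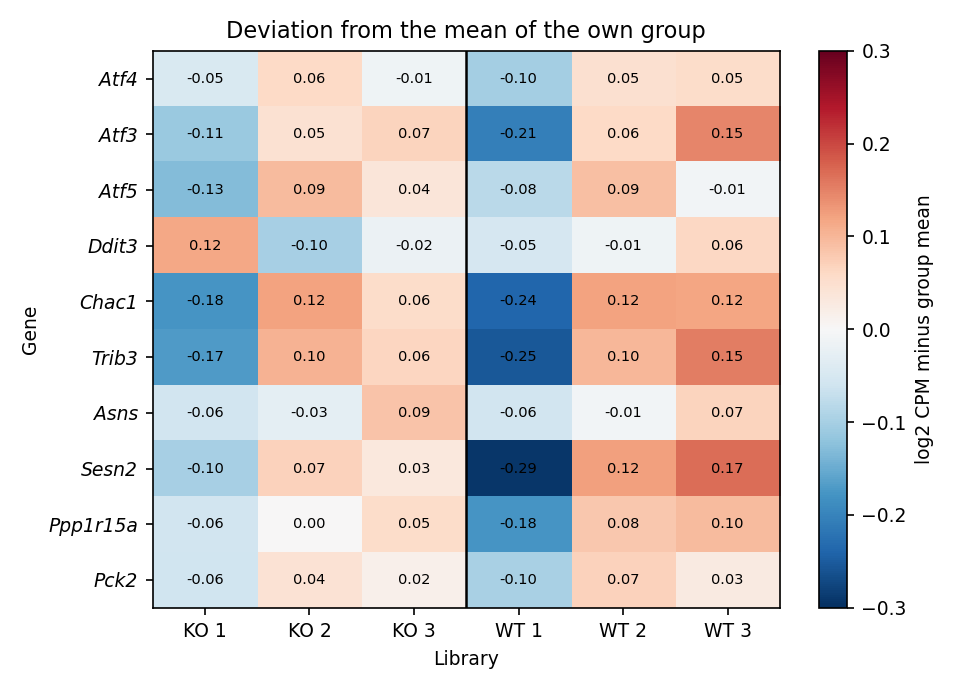
Deviation of each library from the mean of its own group, in log2 CPM, for the 10 genes, with GPD2 KO libraries left of WT libraries. The column of WT replicate 1 is negative for every gene, from -0.05 in Ddit3 to -0.29 in Sesn2, and that of GPD2 KO replicate 1 is negative for all but Ddit3.

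Of the eIF2 kinases, the sensors that start the response, 3 of 4 were higher in GPD2 KO cells (33.5% of all genes were). Eif2ak2, which encodes the double-stranded RNA sensor PKR, had 56.5 ± 4.15 TPM in GPD2 KO cells and 25.8 ± 1.65 TPM in WT cells (SD, n = 3 each), a log2 fold change of 1.13 (standard error 0.0577, adjusted p = 2.22e-07). Eif2ak4, the amino acid sensor GCN2, rose by 0.40 (adjusted p = 3.37e-05), and Eif2ak1, the kinase HRI that relays haem and mitochondrial stress, rose by 0.30 (adjusted p = 9.70e-05), both on the log2 scale. Eif2ak3, the endoplasmic reticulum kinase PERK, was at 10.8 ± 0.0248 TPM in GPD2 KO and 10.8 ± 0.335 TPM in WT cells (log2 fold change -0.03, adjusted p = 0.615).

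Of 20 subunits and regulators of eIF2 and its exchange factor eIF2B, 9 were higher, 4 lower and 7 did not pass, with a median log2 fold change of 0.05. Among all genes, 33.5% were higher and 33.3% lower. With upper quartile factors, 7 were higher and 7 lower, and without GPD2 KO replicate 2, 8 were higher and 6 lower. Eif2s3x, the gamma subunit of eIF2, had a log2 fold change of 0.56 (adjusted p = 4.02e-07) and Eif2b4 of 0.49 (adjusted p = 1.53e-05). Dnajc3, an inhibitor of PERK, was lower (log2 fold change -0.47, adjusted p = 1.54e-05), as was Oma1 (-0.37, adjusted p = 0.0013), the mitochondrial protease that cleaves DELE1 to activate HRI. Dele1 itself, named after its value was seen, had a log2 fold change of -0.20 (adjusted p = 0.00206).

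Of 14 basic leucine zipper factors tested, which include partners of ATF4, 8 were higher and 1 was lower (33.5% and 33.3% of all genes were). Cebpd, an acute phase factor, had 49.7 ± 4.72 TPM in GPD2 KO cells and 3.49 ± 0.352 TPM in WT cells (SD, n = 3 each), a log2 fold change of 3.83 (standard error 0.0957, adjusted p = 2.17e-09). Cebpb, a known partner of ATF4, rose by 0.79 on the log2 scale (adjusted p = 2.71e-06). Nfe2l1, a regulator of proteasome genes, was the lower one (-0.09, adjusted p = 0.0269), a call that was lost without GPD2 KO replicate 1 (adjusted p = 0.0679), GPD2 KO replicate 3 (0.0502) or WT replicate 3 (0.0877).

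As targets of the response outside the 10 genes, 66 were listed and 58 were tested. Control of each of these genes by ATF4 was not tested. The others, such as Fgf21 and Gdf15, were not among the genes of the table. GPD2 KO cells had 40 of the 58 at higher and 5 at lower levels, with a median log2 fold change of 0.23. Of all genes tested, 33.5% were higher and 33.3% lower. Of 12 enzymes of amino acid and folate metabolism 9 were higher, led by Aldh1l2 (0.95, adjusted p = 9.99e-07) and Mthfd2 (0.52, adjusted p = 2.80e-05) of mitochondrial folate metabolism, and Mthfd1l of the same pathway was lower (-0.20, adjusted p = 0.0023). Of 11 amino acid transporters 8 were higher and 0 lower by edgeR's quasi-likelihood test. At an unadjusted p under 0.05, 1 was lower, Slc7a6 (log2 fold change -0.10, adjusted p = 0.0657), named after its value was seen. With upper quartile factors or without GPD2 KO replicate 2, 6 were higher and 1 lower, and with no filter, DESeq2, both limma fits or without WT replicate 2, 8 were higher and 1 lower. The count of higher transporters was also 6 without WT replicate 1 and in the exact test. Slc7a11, the cystine importer, had 10.3 ± 0.533 TPM in GPD2 KO cells and 4.87 ± 0.512 TPM in WT cells (SD, n = 3 each, log2 fold change 1.08, adjusted p = 1.31e-06). Slc1a5, a glutamine transporter, rose by 0.77 on the log2 scale (adjusted p = 1.90e-07). Of 14 genes of cytosolic aminoacyl-tRNA synthetases and tRNA export 12 were higher, led by Wars1 (0.49, adjusted p = 1.22e-05) and Cars1 (0.49, adjusted p = 6.77e-06).

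Of 21 further targets, 11 were higher, 4 lower and 6 did not pass, where 33.5% of all genes were higher and 33.3% lower. Gadd45b, a growth arrest gene, had a log2 fold change of 1.54 (adjusted p = 9.89e-08), and Hmox1, haem oxygenase, of 1.40 (adjusted p = 2.76e-07). The autophagy receptor genes Nbr1 (-0.46, adjusted p = 3.50e-05) and Sqstm1 (-0.41, adjusted p = 6.38e-06) were lower.

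Lists of chaperones of other stress responses held calls in both directions. Of 12 mitochondrial chaperones and proteases, 5 were higher, led by Dnaja3 (0.46) and Hspa9 (0.33), and 2 were lower, Spg7 (-0.44) and Clpp (-0.14, adjusted p = 0.049). The call of Clpp was lost without any single library other than GPD2 KO replicate 2, with adjusted p of 0.0645 to 0.152. Of 16 genes of endoplasmic reticulum chaperones and the unfolded protein response, 6 were higher, led by Dnajb11 (0.72) and Hyou1 (0.55). In the same list 4 were lower, including Ern1 (-0.30), which encodes the sensor IRE1, and Sdf2l1 (-0.23). The median log2 fold changes were 0.08 for the mitochondrial list and 0.05 for the endoplasmic reticulum list, beside -0.00081 over all genes, and the lists were not tested against each other. In all, 71 of 124 other response genes were higher and 16 were lower, where 33.5% of all genes were higher and 33.3% lower. The 5 of 12 and 6 of 16 higher genes of the chaperone lists lie near that share. These lists, too, were drawn up with earlier results of the table known.

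**Figure D5:**
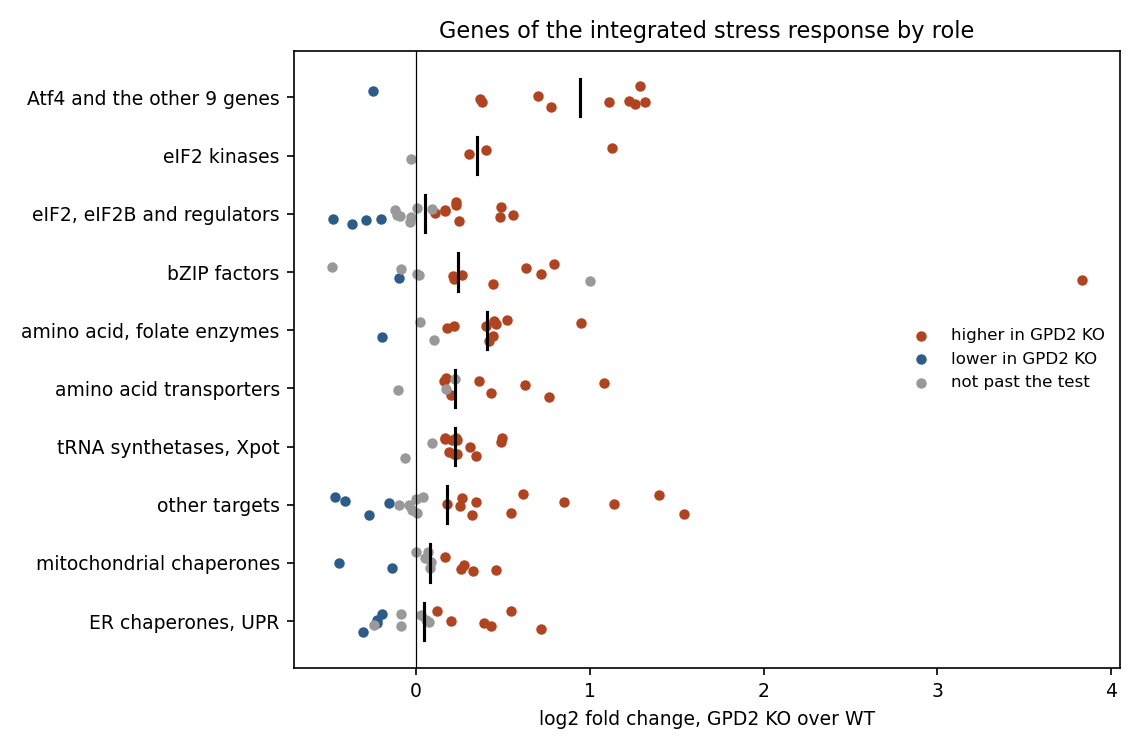
Log2 fold change, GPD2 KO over WT, of each tested gene in the 10 genes described here and in 9 lists of the response (red higher, blue lower, grey not past the test), with black lines at the medians. Medians run from 0.94 for Atf4 and the other 9 genes to 0.05 for the endoplasmic reticulum list, and Cebpd stands farthest to the right at 3.83.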

How the data were processed

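Polyadenylated RNA of 6 samples was sequenced in paired ends from a stranded kit. The submitters' processing notes name Trimmomatic 0.38 for trimming, HISAT2 2.1.0 for alignment on mm10 and StringTie 1.3.4d for quantification. Strand setting and annotation release: not given in the sources used here. The read counts per gene were deposited without normalization. The authors also gave FPKM, TPM and normalized log2 values for each library. No gene has a count under 1 in any library. Columns of the authors' own comparison (fold change, mean level, raw and adjusted p-values) were not used.

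Groups followed the genotype labels. The test was edgeR's quasi-likelihood test (version 4.0.16, R 4.3.3), with TMM scaling, filterByExpr at a minimum count of 10 and Benjamini-Hochberg adjustment at 0.05 over all 12106 genes kept. Standard errors were taken from its F. Alternatives were other scaling factors, no filter, a replicate block, the exact test of edgeR, DESeq2 1.42.0, limma 3.58.1 on log2 of TPM plus 1 or 0.1, a fold of 2, and left-out libraries. The 10 genes and all lists were chosen with earlier results of these data known. Named were the 10 genes, the eIF2 kinases, the 2 highest and 2 lowest called genes of each other list, the 3 genes most correlated with Atf4, and Gpd2. Gene positions came from RefSeq GRCm38, and older symbols of list genes were checked by gene identifier. Replicates of a group differed by more than counting noise. The procedure was run on simulated data with far fewer changed genes than were called here, so it does not probe scaling when most genes change. There, 11 of 50 genes changed by a fold of 1.2 and 45 of 50 changed by a fold of 2 were called. Of 11864 unchanged genes, 10 were called.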

Additional observations from a re-analysis of the deposited data

How the results depend on the processing

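All 10 genes kept their direction and their side of the threshold under the 15 alternatives that changed scaling, filter, tool, block or libraries. Their log2 fold changes ranged from 0.32 to 0.40 for Atf4, from 1.21 to 1.40 for Chac1, from 0.99 to 1.18 for Trib3, from 0.57 to 0.79 for Sesn2 and from -0.30 to -0.21 for Pck2. Requiring a fold of at least 2 left 5 of the 10 genes, 1015 changed genes in all, and 6 higher and 0 lower among the other response genes. Leaving out single libraries gave 7433 to 7783 changed genes, 67 to 71 higher and 13 to 19 lower response genes, and all 10 genes each time. Replicates 1 to 3 carry the same numbers in both groups. Over all genes tested, deviations of same-numbered libraries correlated at 0.0549, 0.0622 and -0.017, so the numbers were not taken as pairs. Among the 10 genes, however, replicate 1 was the lowest WT library for 10 and the lowest GPD2 KO library for 9. With the replicate block 7974 genes changed, with all 10 genes and 70 higher and 16 lower response genes. Of 465 values of the 31 other named genes, 452 kept their call; the rest were Nfe2l1 and Clpp. Nfe2l1 also lost its call in the exact test (adjusted p = 0.271), and Clpp in the exact test (0.105) and with RLE factors (0.053). With upper quartile factors the median of all genes lay at -0.04, and 3581 genes were higher and 4479 lower.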
